A study of Mus musculus with 2 samples.

Results

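Dermal fibroblasts outside the hair follicle papilla were examined in single-cell RNA libraries from dorsal skin of Chrna5-/- (KO) and wild-type (WT) mice, with 1 library per genotype. A cell belonged to this population when it met 4 conditions. It passed filters of 500 or more UMIs (molecules counted once each by a molecular tag), 300 or more detected genes and no more than 20% mitochondrial UMIs. Krt5 and Krt14 together made up less than 1% of its UMIs. It held at least 1 UMI of at least 4 of the 8 genes Col1a1, Col1a2, Col3a1, Dcn, Lum, Dpt, Pdgfra and Clec3b, and of fewer than 4 of the 8 papilla genes Corin, Crabp1, Rspo3, Wif1, Hhip, Vcan, Fgf7 and Enpp2. The rule took 283 of 9308 filtered cells in the KO library and 257 of 10160 in the WT library, 540 of 19468 in all. The cells were thus chosen by the expression of these genes, so the levels of the 16 genes and of both keratins, and the genes that separate subclusters below, are descriptions and were not tested.

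Both genotypes were female C57BL/6 mice of 6 to 8 weeks with vaseline, a cream base, on the back, and skin was taken on day 7. The KO line carried the Chrna5 deletion on a background crossed to C57BL/6N for more than 10 generations, and the labels give both C57BL/6N and C57BL/6J. The protocol text on cell extraction mentions imiquimod, while the sample labels name vaseline for both libraries. Neither the deleted part of Chrna5 nor the number of mice behind a library is stated in the labels. After the fat was scraped off, skin was dissociated in collagenase, and cells that excluded a dead-cell dye were sorted. With 1 library per genotype there was no replicate check and no test, so each difference below is between 2 libraries, and every interval is a 95% interval for counting error only.

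Dermal fibroblasts make and remodel the collagen and elastin matrix of the skin, and they send growth factors, Wnt and BMP modulators and chemokines to the epidermis, vessels and immune cells. Upper (papillary) and lower (reticular) dermis, the fascia and the connective tissue sheath of the hair follicle hold fibroblasts with different programmes. The follicle papilla, set aside here, is a condensate of specialised fibroblasts that signals to hair progenitors. Chrna5 encodes the alpha 5 subunit of nicotinic acetylcholine receptors.

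The fibroblasts held 1536099 UMIs in the KO library and 1366050 in the WT library, with medians of 4932 and 5074 UMIs and 1931 and 1915 genes per cell. Median mitochondrial content was 1.03% in KO and 2.41% in WT fibroblasts. Immediate early genes, which digestion can induce, took 3.65% of UMIs in KO and 4.23% in WT fibroblasts, and heat shock chaperones took 1.10% and 1.13%. The libraries shared 34 barcodes, of which 1 fell among the fibroblasts of each library. Fibroblasts made up 3.04% (2.70 to 3.41, Clopper-Pearson) of filtered KO cells and 2.53% (2.23 to 2.85) of filtered WT cells, a ratio of 1.20 (1.01 to 1.43). Chrna5 itself had 0 UMIs in KO and 0 in WT fibroblasts, with exact 95% upper limits of 2.40 CPM in KO and 2.70 CPM in WT (CPM, counts scaled to a total of 1e6 over the summed cells), so these cells hold no check of the genotype. Over all filtered cells it had 3 UMIs in KO and 13 in WT.

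Because the rule used the fibroblast and papilla genes, their detection describes the choice of cells and is no independent check of the label. Each of the 8 fibroblast genes had a UMI in 80.9% to 96.5% of KO and 70.8% to 98.1% of WT fibroblasts. In the other filtered cells, which were neither fibroblasts nor papilla cells and were deeper (medians of 13315.5 UMIs in KO and 13611 in WT), Dcn was found in 4.02% and 5.28% of cells. All 8 markers were present in 180 KO and 134 WT fibroblasts, and only 4 in 18 and 15. Corin, a serine protease of the papilla, was found in 1.06% of KO and 3.50% of WT fibroblasts, against 76.2% and 85.1% of papilla cells, whose median depths were 5649 UMIs in KO and 6899.5 in WT. At the edge of the rule, the KO cells with exactly 4 markers had 671 CPM of Dcn and 5176 CPM of Col1a1, and the 17 KO cells with 3 markers had 916 and 1928 CPM. The 15 WT cells with 4 markers had 966 CPM of Dcn and 14840.6 CPM of Col1a1, and the 18 WT cells with 3 had 187 and 612 CPM.

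Summed markers of other cell types were below the 23935 CPM in KO and 33225 CPM in WT of the 8 fibroblast markers, which the rule used. They were not always below their level in the other filtered cells. The 8 dermal sheath and smooth muscle markers summed to 197 CPM in KO and 301 CPM in WT fibroblasts, against 24.9 and 67.9 CPM in the other cells. The 8 pericyte markers summed to 105 CPM in KO and 189 CPM in WT fibroblasts, against 488 and 464 CPM in the other cells. The 8 endothelial markers summed to 18.9 CPM in KO and 22.7 CPM in WT fibroblasts, against 4.34 and 5.17 CPM in the other cells. In fibroblasts they came from Kdr and Flt1 and 1 UMI of Pecam1 in WT, with Cdh5, Cldn5, Egfl7, Emcn and Tie1 at 0 in both. Of the 8 adipocyte markers Adipoq, Plin1, Cidec, Lep, Retn, Cfd and Car3 were at 0 in both, and Fabp4 had 6 UMIs in KO and 0 in WT fibroblasts. The 8 keratinocyte markers summed to 2279 CPM in KO and 2017 CPM in WT fibroblasts, against 30199 and 28653 CPM in the other cells. The 8 T and innate lymphoid markers summed to 67.7 CPM in KO and 14.6 CPM in WT fibroblasts, all 8 detected in KO and 7 in WT. The 8 melanocyte markers summed to 182 CPM in KO and 263 CPM in WT fibroblasts, against 195 and 870.5 CPM in the other cells. The 8 Schwann cell markers summed to 171 CPM in KO and 113 CPM in WT fibroblasts, against 126 and 118 CPM in the other cells. The part of these cell types in the differences below was not tested.

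The fibroblasts fell into 6 subclusters at Leiden resolution 0.5, and the plot of cell numbers by subcluster shows how each library filled them. Subcluster 0 held 84 KO and 53 WT cells and was led by Aldh1a3, which makes retinoic acid from retinal, Smpd3, a neutral sphingomyelinase, Akr1c18, Bmp3, Car8 and the B cell chemokine Cxcl13. Subcluster 1 held 113 KO and 65 WT cells and was led by Fmo2, Myoc (myocilin), Lgi2, the calcification inhibitor Mgp, the TAM receptor ligand Gas6 and F3 (tissue factor). Subcluster 2 held 56 KO and 34 WT cells and was led by Cxcl9 and Irgm1, both known as interferon-inducible, Thbs4, Bmp5, Tifa and Ifi47. These 3 subclusters had a median of 8 of 8 fibroblast markers per cell.

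**Figure D1:**
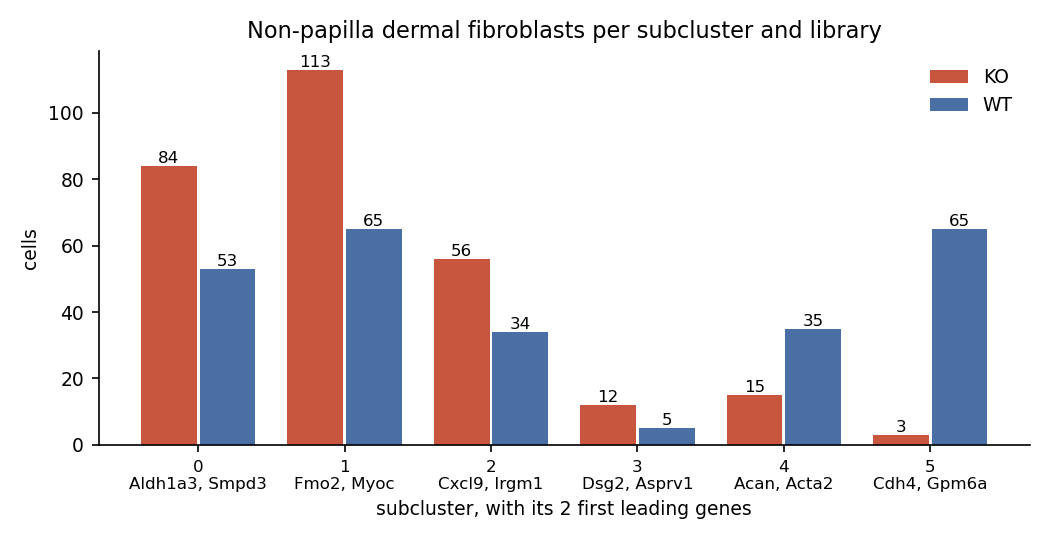
Cells (y axis) in each of the 6 subclusters (x axis) in the KO library (red, left bars) and the WT library (blue, right bars). Subclusters 0, 1 and 2 held 84, 113 and 56 KO cells and 53, 65 and 34 WT cells, while subcluster 5 held 3 KO and 65 WT cells.

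The other 3 subclusters were small in at least 1 library. Subcluster 3 held 12 KO and 5 WT cells with medians of 16299.5 and 18430 UMIs, and its leading genes were the keratinocyte genes Dsg2 and Asprv1 with Dach1, Mpzl3, Tesc and Baiap2l1. The keratinocyte markers took 1.32% of its UMIs in KO and 1.82% in WT, against at most 0.101% in any other subcluster and library. A doublet score above 0.25 was found in 4 of its KO and 4 of its WT cells. Subcluster 4 held 15 KO and 35 WT cells and was led by Acan (aggrecan), Acta2 (smooth muscle actin), Megf6, Lrrc15, Adamts18 and Col11a1, with a median of 5 of 8 fibroblast markers. Its summed papilla genes reached 1726 CPM in KO and 1285 CPM in WT, above every other subcluster in both libraries. At least 3 of its 6 leading genes were held by 54 KO and 90 WT filtered cells, of which 8 and 21 were in the subcluster and 40 and 59 were papilla cells.

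Subcluster 5 held 3 KO and 65 WT cells. It was led by Cdh4 (R-cadherin), Gpm6a, Sectm1a, the lymphocyte chemokine Ccl19, Cyp2f2 and the aldehyde dehydrogenase Aldh3a1. At resolutions 0.3 and 0.8 the same 3 KO and 65 WT cells formed a cluster of their own. Within it, S100a4, a calcium-binding protein of motile cells, was at 3217 CPM in KO (40 UMIs) and 2523 CPM in WT (780 UMIs), and Cyp26b1, which degrades retinoic acid, at 643 CPM (8 UMIs) and 1595 CPM (493 UMIs). A subcluster that comes almost wholly from 1 library may be that library and not a cell type, and the mice and skin pieces behind the libraries cannot be told apart from the genotype. Among all filtered cells, 1 KO and 19 WT cells held at least 4 of its 6 leading genes, of which 1 and 18 were in the subcluster. At least 3 were held by 55 KO and 72 WT cells, of which 2 and 36 were in the subcluster and 53 and 35 were neither fibroblasts nor papilla cells. The search by leading genes was chosen after the values were seen. The heat map of leading genes gives the levels by library.

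**Figure D2:**
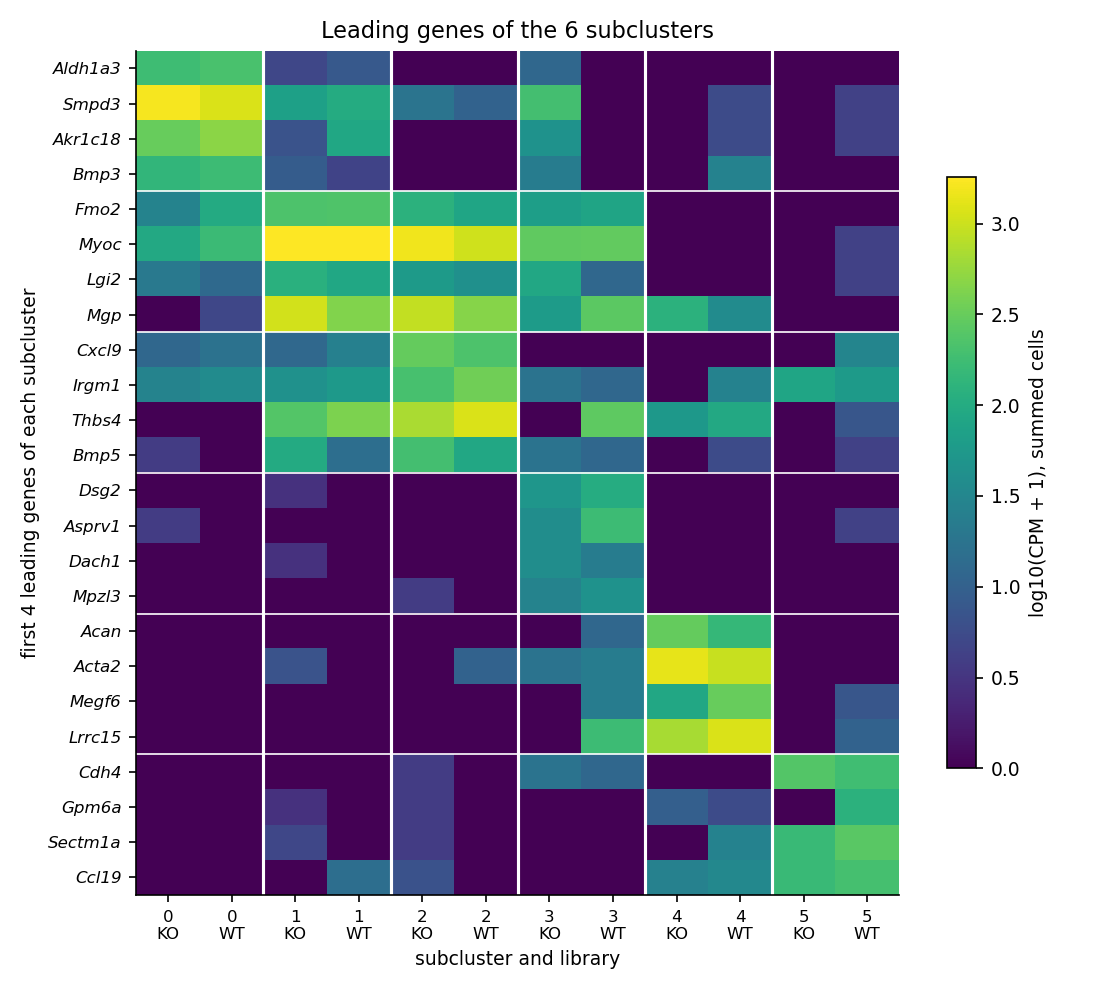
Summed level, as log10(CPM + 1) by colour, of the 4 first leading genes of each subcluster (rows) in the cells of each subcluster and library (columns, KO left of WT). Acan, which leads subcluster 4, was at 0.390 CPM over the other fibroblasts, whereas Mgp, which leads subcluster 1, was at 898 CPM in KO and 457 CPM in WT in subcluster 2.

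For the comparison of KO with WT fibroblasts, UMIs were summed over the cells of a library, and genes with 20 or more UMIs over both libraries were compared. Higher means a CPM ratio of KO over WT of at least 1.5 with an interval above 1, and lower a ratio of at most 1/1.5 with an interval below 1. Of 9446 measured genes, 549 (5.81%) were higher and 461 (4.88%) lower, with a median log2 ratio of 0.07 over all. With TMM scaling the split was 410 higher and 562 lower, and with median-of-ratios scaling 424 and 551. Because the subclusters were filled unevenly, many results are also given for subclusters 0, 1 and 2 summed, called the shared subclusters, the 3 with at least 20 cells in both libraries. There 376 of 8191 genes (4.59%) were higher and 213 (2.6%) lower, with a median log2 ratio of 0.08.

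Genes chosen by rank had at least 100 UMIs and fibroblasts as a main source. Main source means a CPM at least equal to that of all other filtered cells, judged only in the library where fibroblasts were higher. A gene could thus pass through the library where it was high. Among these genes Bmp5, Mgp and Cxcl14 had the highest ratios of KO over WT. Bmp5, a BMP ligand (chr9:75775364-75900310, plus strand, mm10), had 122 UMIs in KO and 26 in WT fibroblasts, 79.4 and 19.0 CPM, a ratio of 4.17 (2.72 to 6.64). Mgp (chr6:136872435-136875823, minus strand) had 891 UMIs in 103 KO cells and 251 UMIs in 62 WT cells, 580.0 and 184 CPM, a ratio of 3.16 (2.74 to 3.65). Cxcl14 (chr13:56288643-56296551, minus strand), a chemokine that resting skin makes, was at 544 CPM in KO and 184 CPM in WT, a ratio of 2.95 (2.56 to 3.41). It passed the filter only through KO. In the cells that were neither fibroblasts nor papilla cells, Cxcl14 was at 167 CPM in KO and 324 CPM in WT, a ratio of 0.513 (0.505 to 0.522). All 3 had few UMIs in subcluster 0, with 1 in KO and 0 in WT for Bmp5, 0 and 1 for Mgp and 2 and 7 for Cxcl14. In subcluster 1 Bmp5 was at 97.5 CPM in KO and 14.2 CPM in WT, Mgp at 1067 and 428 CPM and Cxcl14 at 700.0 and 329 CPM. In subcluster 2 Bmp5 was at 191 CPM in KO and 89.5 CPM in WT, Mgp at 898 and 457 CPM and Cxcl14 at 1135 and 537 CPM.

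The other 8 of the 11 highest genes described here ranged in ratio from 2.29 to 2.81. They were Arl4d, Col6a6 (a collagen VI chain), Adm (adrenomedullin, a vasodilator peptide), Vldlr, Zbtb16, Bod1l, Lgi2 and Adamtsl3. Adm was at 287 CPM in KO and 109 CPM in WT, with UMIs in 121 KO and 58 WT cells. Bod1l, at 42.5 CPM in WT fibroblasts and 49.5 CPM in the other WT cells, passed the filter only through KO. In subclusters 0, 1 and 2 together 8 of the 11 were higher as well, and the ratios of the other 3 were 1.51 (0.967 to 2.41) for Vldlr, 1.48 (0.996 to 2.25) for Lgi2 and 1.53 (0.966 to 2.48) for Adamtsl3. None of the 11 was highest in subcluster 4 or 5.

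The 12 lowest genes had another distribution, and their CPM peaked in subcluster 4 for 4 of them and in subcluster 5 for 8. Subcluster 4 held 15 KO and 35 WT cells and subcluster 5 held 3 and 65. Genes that peak there thus tend to have low ratios, so this contrast with the highest genes follows in part from the ranking. Coch (cochlin, a matrix protein; chr12:51593341-51605771, plus strand) had 18 UMIs in KO fibroblasts, all in 1 cell, and 217 in 10 WT cells, a ratio of 0.0738 (0.0429 to 0.119), and all of these cells were in subcluster 4. S100a4 (chr3:90603771-90606045, plus strand) was at 108 CPM in KO and 699 CPM in WT, a ratio of 0.155 (0.130 to 0.182). Cyp26b1 (chr6:84571414-84593908, minus strand) was at 81.4 CPM in KO and 432 CPM in WT, a ratio of 0.188 (0.154 to 0.229). In subclusters 0, 1 and 2 the ratio was 1.06 (0.753 to 1.504) for S100a4 and 1.99 (1.22 to 3.36), which is higher, for Cyp26b1.

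Mfap4, a microfibril-associated protein, was at 212 CPM in KO and 1051 CPM in WT, a ratio of 0.202 (0.178 to 0.228), and at 0.678 (0.565 to 0.813) in subclusters 0, 1 and 2. Il1r2, the decoy receptor of interleukin-1, was at 54.0 CPM in KO and 214 CPM in WT, a ratio of 0.253 (0.196 to 0.324). Of the 12 genes 6 had too few UMIs in subclusters 0, 1 and 2 to be measured there, and of the other 6 Il1r2 was lower there too, at 0.578 (0.397 to 0.839), Cyp26b1 higher and 4 neither. The others were Cpz, Tnmd (tenomodulin), Aldh3a1, Ptgfr (the prostaglandin F receptor), Rspo1 (an R-spondin that amplifies Wnt signals), Lrrc15 and Igfbp2, with ratios of 0.0863 to 0.271. Coch, Lrrc15 and Igfbp2 had 0 UMIs in those 3 subclusters of either library. At least Aldh3a1 passed the main source filter only through WT. It had 18 UMIs in KO fibroblasts, in 1.77% of them, and was found in 21.7% of the deeper other KO cells.

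**Figure D3:**
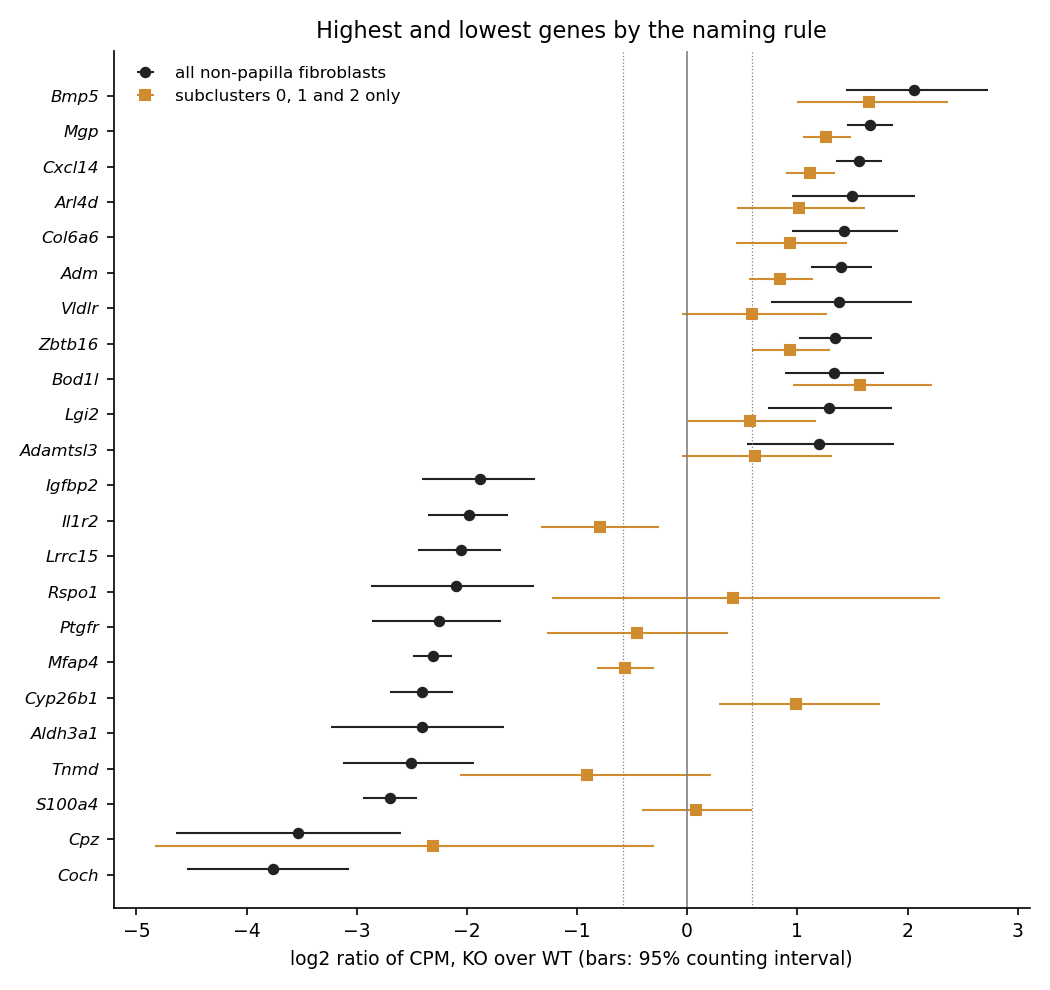
Log2 ratio of CPM, KO over WT (x axis), with 95% counting intervals for 11 of the highest and the 12 lowest genes (rows), over all fibroblasts (black) and over subclusters 0, 1 and 2 (orange). Dotted lines mark a 1.5-fold ratio, and genes with 0 UMIs in either library there have no orange point. The orange points of the highest genes stay to the right of 0, while those of S100a4, Rspo1 and Cyp26b1 lie on the other side of 0 from the black ones, with intervals that include 0 for S100a4 and Rspo1.

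Collagen I was lower in KO fibroblasts in the sum but not within the shared subclusters. Col1a1 (chr11:94936224-94953042, plus strand) was at 2392 CPM in KO and 5080 CPM in WT, a ratio of 0.471 (0.452 to 0.490), and Col1a2 at 3542 and 6479 CPM, a ratio of 0.547 (0.528 to 0.566). Both are among the genes that chose the cells. In subclusters 0, 1 and 2 the ratios were 1.09 and 1.01. Subcluster 4 had 9868 CPM of Col1a1 in KO and 14710.1 CPM in WT, and subcluster 5 had 6274 and 6964 CPM, against 1366 to 2244 CPM in KO and 1544 to 2032 CPM in WT in subclusters 0, 1 and 2.

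The counts of each gene list are to be read beside the 5.81% of all measured genes that were higher and the 4.88% that were lower. Of 8 measured fibrillar collagens, 1 was higher and 3 lower, Col1a1, Col1a2 and Col11a1, with a median log2 ratio of -0.22. None was called in subclusters 0, 1 and 2, where the median was 0.15. Col1a1, Col1a2 and Col3a1 of this list chose the cells, so its count and median are partly a description of that choice. Such genes also sit in other lists, Dpt among matrix glycoproteins and Clec3b among reticular and fascia genes, neither of them called. Col11a1, a minor fibril chain, was at 65.1 CPM in KO and 211 CPM in WT, with 92 of its 100 KO and 270 of its 288 WT UMIs in subcluster 4. Col5a3 was the higher one, at 330.1 CPM in KO and 198 CPM in WT. Of 15 other collagens 2 were higher, Col6a6 and Col14a1, and 3 lower, Col7a1, Col16a1 and Col18a1. Col14a1, a fibril-associated collagen, had a ratio of 1.86 (1.66 to 2.08), and in the shared subclusters, where it was not called, of 1.36 (1.20 to 1.54). Of 22 genes of collagen folding and cross-linking 1 was higher, Lox (ratio 1.53), and 1 lower, Loxl4 (0.275), both lysyl oxidases. In the shared subclusters 0 of 21 were called, with ratios of 1.45 (1.16 to 1.81) for Lox and 0.742 (0.279 to 2.03) for Loxl4.

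Of 17 elastic fibre genes 0 were higher and 6 lower in KO fibroblasts, and none was called in the shared subclusters. Their ratios were above 1 for 6 and below 1 for 11. The 6 lower genes were Mfap4, Eln (elastin, 444 CPM in KO and 672 CPM in WT), Fbln5 (a fibulin of elastic fibre assembly), Ltbp1, Ltbp2 and Ltbp3, the last 3 being binding proteins of latent TGF-beta. Their median log2 ratio of -0.34 in all fibroblasts stood against 0.07 in subclusters 0, 1 and 2. The ratio there was 0.692 (0.616 to 0.777) for Eln and 0.670 (0.496 to 0.906) for Ltbp3, each just short of the fold. Mfap5, another microfibril protein, was at 779 CPM in KO and 560.0 CPM in WT, a ratio of 1.39, and was not called.

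Among 27 measured matrix glycoproteins 5 were higher and 4 lower. Mgp, Sparcl1 and Abi3bp were higher in all fibroblasts and in the 3 shared subclusters. Sparcl1, a SPARC-related protein, was at 163 CPM in KO and 84.9 CPM in WT, a ratio of 1.92 (1.54 to 2.42), and at 2.54 (1.88 to 3.47) in the shared subclusters. Tnc (tenascin C), with 15 UMIs in KO and 49 in WT, and Spon2, at 89.8 and 191 CPM, were lower in both. Postn (periostin) was lower over all fibroblasts, at 255 CPM in KO and 463 CPM in WT, and higher in the shared subclusters at a ratio of 2.26. Of 19 proteoglycan genes 3 were higher and 4 lower, Lum, Bgn, Fmod and Has2. Lum, at a ratio of 0.651 (0.614 to 0.689), and Dcn, which was not called, are among the genes that chose the cells. Has2, the hyaluronan synthase, was at 56.6 CPM in KO and 110.5 CPM in WT and lower in the shared subclusters too (0.444, 0.326 to 0.602).

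Of 30 measured matrix proteases and inhibitors 3 were higher (Mmp3, Fap and Plau, ratios 1.53 to 1.75) and 6 lower, beside 5.81% and 4.88% of all genes. None of these calls was repeated in the shared subclusters, where 4 of 28 genes were higher and 0 lower. The protease inhibitor Serpina3n was lower over all fibroblasts, with a ratio of 0.288 (0.234 to 0.353), and higher in the shared subclusters, at 1.72. It was at 1104 CPM in subcluster 5, against 14.7 to 89.3 CPM elsewhere with both libraries summed. Plau, the urokinase gene, was at 88.5 CPM in KO and 50.5 CPM in WT, and at a ratio of 1.20 in the shared subclusters.

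Over all fibroblasts the median log2 ratio was -0.55 for papillary genes and 0.14 for reticular and fascia genes, and in the shared subclusters it was -0.04 and -0.25. Of 12 measured papillary genes 1 was higher, Inmt, and 4 lower, Rspo1, Trps1, Col18a1 and Ntn1 (netrin 1), and none was called in the shared subclusters. Of 20 reticular and fascia genes 3 were higher, Mgp, Dlk1 and Gsn, and 2 lower, Pi16 and Cd34, whereas in the shared subclusters 2 were higher and 3 lower and 16 of the 20 ratios were below 1. Pi16 (chr17:29317680-29330593, plus strand), which marks adventitial progenitor-like fibroblasts in mouse, was at 1407 CPM in KO and 2558 CPM in WT, a ratio of 0.550 (0.521 to 0.581). It was at 3405 CPM in KO and 4468 CPM in WT in subcluster 0, 1098 and 2128 CPM in subcluster 1, and 408 and 1111 CPM in subcluster 2, so the KO value was the smaller one in each. Gsn (gelsolin), which severs actin, was at 14584.3 CPM in KO and 9174 CPM in WT, a ratio of 1.59 (1.56 to 1.63), and at 1.26 in the shared subclusters.

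Among signals, the Wnt list had 4 higher and 7 lower of 26 measured genes and none called in the shared subclusters. The higher ones were Wnt5a, Wnt16 and the secreted Wnt antagonists Sfrp2 (228 CPM in KO and 134 CPM in WT) and Sfrp4 (91.8 and 49.8 CPM). The lower ones included Rspo1, the receptors Fzd1 and Fzd2 and the antagonists Dkk2 and Dkk3. Of 23 BMP and TGF-beta pathway genes 3 were higher, Bmp5, Fst (follistatin, an activin antagonist) and Chrdl1, and 3 lower, Grem1, Fstl3 and Twsg1. Grem1, a secreted BMP antagonist, had 0 UMIs in KO fibroblasts and 52 in 9 WT cells, 50 of them in subcluster 5, and with the KO count set to the floor of 3 its ratio was at most 0.0513.

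The growth factor list had 8 higher and 10 lower of 38 measured genes. Gdf10, a BMP-related factor, had 54 UMIs in 13 KO cells and 8 in 5 WT cells, a ratio of 6.00 (2.84 to 14.6). Mdk (midkine) had 51 UMIs in KO and 12 in WT, a ratio of 3.78 (1.99 to 7.79), and both were higher in the shared subclusters. Fibroblasts were at 35.2 CPM of Gdf10 in KO and 5.86 in WT, against 360 and 231 CPM in papilla cells. For Mdk they were at 33.2 and 8.78 CPM, against 770 and 684 CPM in papilla cells. RNA from papilla cells as a source was not tested. Cyr61, a matricellular protein induced by stretch and serum, was lower at 882 CPM in KO and 1899 CPM in WT, a ratio of 0.465 (0.435 to 0.496). In subclusters 0, 1 and 2 Cyr61 was at 1394, 716 and 563 CPM in KO and 2051, 1186 and 1384 CPM in WT, so the KO value was the smaller one in each. Tgfb2, Inhba and Inhbb were lower in all fibroblasts and in the shared subclusters summed, at ratios there of 0.499 to 0.570.

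Of 9 genes in the IGF binding protein list 1 was higher and 4 lower. Igfbp5 was at 1008 CPM in KO and 1926 CPM in WT, a ratio of 0.523 (0.491 to 0.557), and at 0.574 in the shared subclusters. Igfbp3 was at 891 CPM in KO and 523 CPM in WT, a ratio of 1.70 (1.55 to 1.87), and at 1.21 in the shared subclusters. Stc1 (stanniocalcin 1) had 0 UMIs in KO and 41 in 5 WT cells, all in subcluster 5, and Pappa, the metalloprotease that cleaves IGF binding proteins, had 6 UMIs in KO and 21 in WT.

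Chemokines were divided, with 4 higher and 4 lower of 17 measured. The higher ones were Cxcl14 and the neutrophil and T cell attractants Cxcl1 (2271 CPM in KO and 1266 CPM in WT), Cxcl2 and Cxcl9. The lower ones were Ccl19, Ccl20, Ccl8 and Cxcl16, with ratios of 0.0865 to 0.631. In the shared subclusters Cxcl14 alone of the first 4 passed the fold, at 2.17 (1.86 to 2.53), and Cxcl1 was at 1.23 (1.16 to 1.31). Ccl8 was at 532 CPM in subcluster 5, against 22.2 to 51.1 CPM elsewhere with both libraries summed. Of 10 cytokines Tslp, an epithelial alarmin, and Spp1 (osteopontin) were higher. Tslp was at 43.0 CPM in KO and 20.5 CPM in WT fibroblasts, below the 54.1 and 50.7 CPM of the other cells, and at a ratio of 1.57 (0.947 to 2.70) in the shared subclusters. It had a UMI in 17.0% of KO and 9.73% of WT fibroblasts, against 19.5% and 18.7% of the deeper other cells, and RNA from those cells as its source was not tested. For Spp1, 47 of the 66 KO UMIs lay in 1 cell, and without cells of high doublet score its log2 ratio was -0.59.

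**Figure D4:**
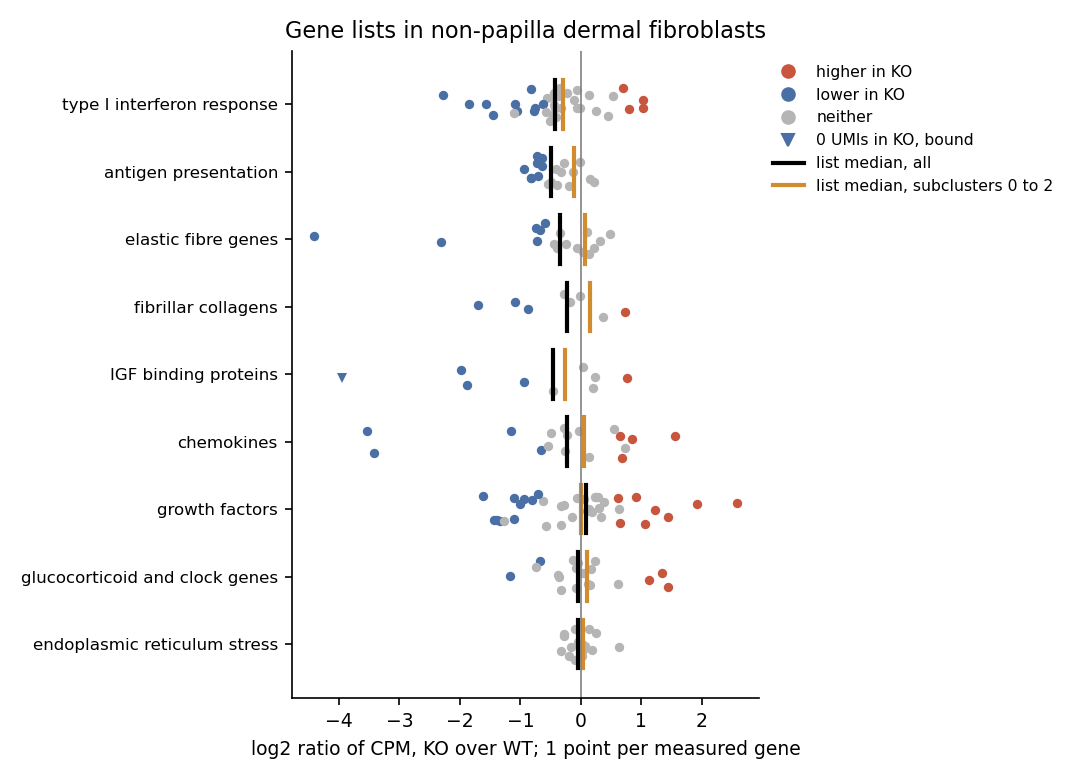
Log2 ratio of CPM, KO over WT (x axis), of each measured gene (points) in 9 gene lists (rows), coloured by whether KO was higher, lower or neither, with the list median over all fibroblasts (black line) and over subclusters 0, 1 and 2 (orange line). The median of the interferon list was -0.42 over all fibroblasts and -0.29 over those subclusters, while that of the elastic fibre list was -0.34 and 0.07.

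In the interferon list more genes were lower than higher in KO fibroblasts. Of 37 measured genes 10 were lower and 4 higher, beside 4.88% and 5.81% of all genes, with a median log2 ratio of -0.42. The lower ones included Ifit1, Ifit3 and Ifit3b, of a family in which some proteins bind viral RNA, and Isg15, a ubiquitin-like modifier. The rest of the lower ones were the RNA sensors Ifih1 and Ddx58, the nucleic acid sensor Zbp1, Oasl2, the GTPase Gbp2 and Ifi27l2a. The 4 higher ones, Ifi203, Ifi205, Ifi207 and Ifi211, belong to the Ifi200 family of DNA-binding proteins on chromosome 1. Ifi204 of that family, at 391 CPM in KO and 270.1 CPM in WT, was not called, with a ratio of 1.45 (1.27 to 1.65). In the shared subclusters 7 of the 10 lower genes were lower and 1 of the 4 higher ones, Ifi207, was higher, with a list median of -0.29.

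Ifi27l2a (chr12:103442167-103443680, minus strand), an interferon-inducible mitochondrial protein, was at 780 CPM in KO and 1381 CPM in WT, a ratio of 0.565 (0.525 to 0.607). It was at 1017, 977 and 572 CPM in subclusters 0, 1 and 2 of KO and at 1736, 2114 and 1017 CPM in those of WT, lower in KO in each. Outside the fibroblasts Ifi27l2a was also lower, with 8.67 CPM in KO and 74.5 CPM in WT papilla cells and 37.2 and 268 CPM in the other cells. Isg15 had 9 UMIs in KO and 29 in WT fibroblasts, and in the other cells it was at 0.713 CPM in KO and 3.05 CPM in WT. Ifit3 had 32 and 59 UMIs, 20.8 CPM in KO and 43.2 CPM in WT fibroblasts.

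Ifi207 was at 356 CPM in KO and 176 CPM in WT fibroblasts, a ratio of 2.03 (1.74 to 2.37), and at 423 and 273 CPM in the shared subclusters. Ifi211 was at 278 CPM in KO and 136 CPM in WT, a ratio of 2.04 (1.71 to 2.44), and Ifi205 at 874 and 502 CPM, a ratio of 1.74 (1.59 to 1.91). All 3 were nearly absent from papilla cells, where Ifi207 had 1 UMI in KO and 2 in WT. The Ifi200 genes lie side by side and resemble each other, so reads that match several of them may have been split or dropped in counting.

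Promoters of a lower pair and a higher pair of this list are shown because the pairs differ in direction while both carry the motif that interferon-activated factors are known to bind. Each sequence runs from 250 bases before to 50 bases after the gene's start (RefSeq, GRCm38.p6), 5′ to 3′ along the gene. Capitals mark the core of the interferon-stimulated response element, spelled GAAA, any 2 bases, then GAAA, searched on both strands, with overlapping matches joined.
Isg15, chr4:156200769-156201068, minus strand, lower in KO: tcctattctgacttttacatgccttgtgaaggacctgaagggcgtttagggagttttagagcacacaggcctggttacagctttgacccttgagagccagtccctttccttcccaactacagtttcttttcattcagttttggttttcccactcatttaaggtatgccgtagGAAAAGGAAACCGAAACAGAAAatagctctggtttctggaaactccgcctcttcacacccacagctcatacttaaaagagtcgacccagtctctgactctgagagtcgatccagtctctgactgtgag
Ifit3, chr19:34583279-34583578, plus strand, lower in KO: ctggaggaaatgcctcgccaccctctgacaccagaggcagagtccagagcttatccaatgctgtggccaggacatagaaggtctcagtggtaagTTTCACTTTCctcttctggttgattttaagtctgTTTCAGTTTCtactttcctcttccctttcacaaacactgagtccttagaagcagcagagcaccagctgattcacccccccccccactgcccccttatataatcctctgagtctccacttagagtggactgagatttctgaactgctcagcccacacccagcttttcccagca
Ifi207, chr1:173741760-173742059, minus strand, higher in KO: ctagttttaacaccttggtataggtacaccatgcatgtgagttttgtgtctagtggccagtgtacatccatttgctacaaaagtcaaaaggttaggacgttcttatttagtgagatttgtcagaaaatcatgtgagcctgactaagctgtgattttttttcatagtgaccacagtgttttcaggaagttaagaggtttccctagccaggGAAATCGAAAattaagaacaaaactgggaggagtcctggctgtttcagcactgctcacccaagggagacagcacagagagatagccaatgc
Ifi211, chr1:173912997-173913296, minus strand, higher in KO: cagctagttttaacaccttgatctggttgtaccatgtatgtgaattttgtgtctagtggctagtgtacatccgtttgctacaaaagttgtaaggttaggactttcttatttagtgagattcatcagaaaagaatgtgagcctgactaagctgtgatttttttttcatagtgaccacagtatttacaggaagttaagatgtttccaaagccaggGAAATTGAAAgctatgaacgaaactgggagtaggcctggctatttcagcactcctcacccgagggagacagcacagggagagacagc
The motif was found in the promoter of 7 of 8 lower and 4 of 4 higher genes of the list that had a promoter in the table. It was found for 20 of the 27 measured list genes with a promoter (74.1%) and for 1079 of 27025 genes in all (3.99%). Its presence did not divide the lower from the higher genes.

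In the antigen presentation list 8 of 19 measured genes were lower and 0 higher, with a median log2 ratio of -0.49, and -0.11 in the shared subclusters. B2m, the light chain of MHC class I, was at 971 CPM in KO and 1612 CPM in WT, a ratio of 0.603 (0.564 to 0.644), and H2-K1, a heavy chain, at 535 and 874 CPM, a ratio of 0.612 (0.560 to 0.670). In the shared subclusters B2m was at 0.834 and H2-K1 at 0.907, and H2-T23 and the immunoproteasome gene Psmb10 were lower there. B2m was at 3150 CPM in subcluster 5, against 932 to 1188 CPM in the others with both libraries summed.

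Of 19 measured genes in the glucocorticoid and clock list 3 were higher, 2 lower and 14 neither, beside 5.81% and 4.88% of all genes. The higher ones, Tsc22d3, Zbtb16 and Fkbp5, are known to respond to glucocorticoids, and all 3 were higher in the shared subclusters too. The lower ones were Bhlhe40 and Bhlhe41. Tsc22d3 (chrX:140539528-140600659, minus strand), which encodes the glucocorticoid-induced leucine zipper, was at 277 CPM in KO and 127 CPM in WT, a ratio of 2.18 (1.83 to 2.62), and at 99.7, 378 and 366 CPM in subclusters 0, 1 and 2 of KO and 51.8, 152 and 127 CPM in those of WT. Zbtb16 (chr9:48654297-48836222, minus strand), a transcription factor, was at 193 CPM in KO and 76.1 CPM in WT, with UMIs in 148 KO and 69 WT cells. In the cells that were neither fibroblasts nor papilla cells Zbtb16 was higher too, at 15.8 CPM in KO and 5.92 CPM in WT, a ratio of 2.66. Fkbp5, a co-chaperone of the steroid receptor, had only 52 UMIs in KO and 17 in WT.

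**Figure D5:**
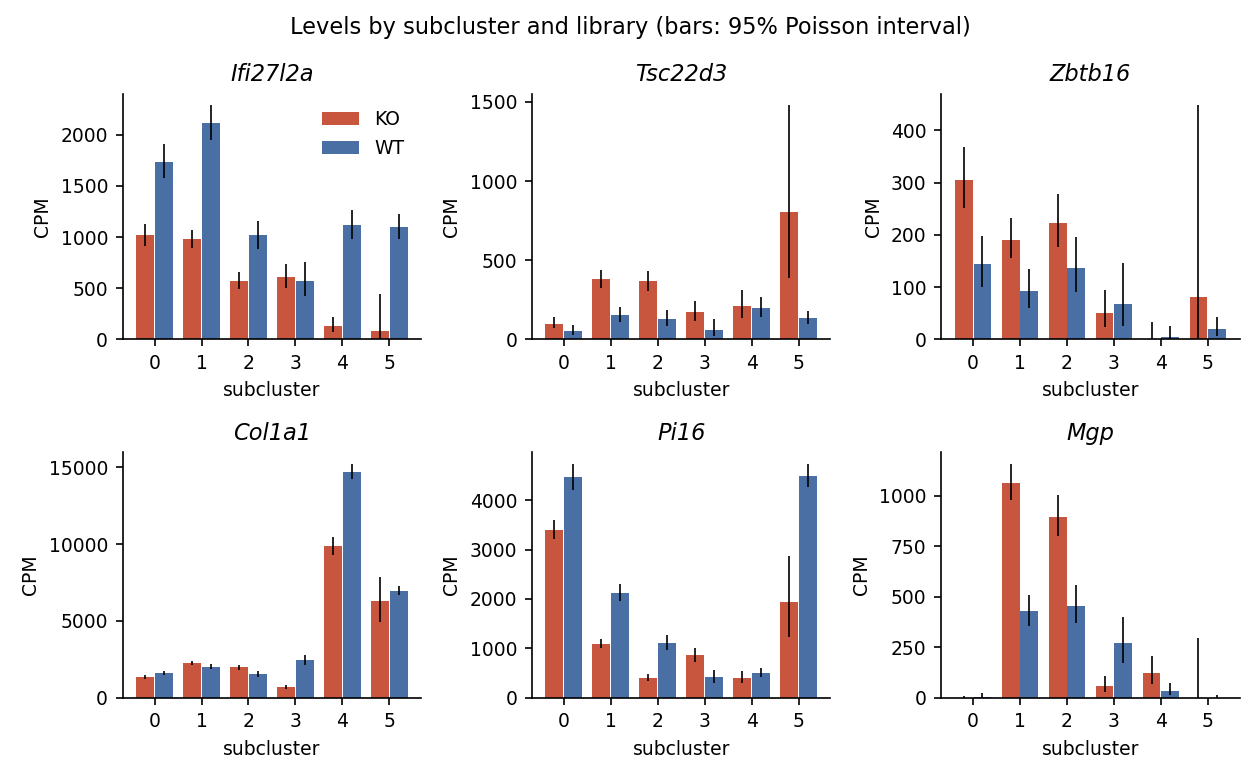
CPM (y axes) of 6 genes in each subcluster (x axes) of the KO library (red, left bars) and the WT library (blue, right bars), with 95% Poisson intervals of the count. In each of subclusters 0, 1 and 2 the KO bar was the shorter one for Ifi27l2a and Pi16 and the taller one for Tsc22d3 and Zbtb16, whereas Col1a1 reached 9868 CPM in KO and 14710.1 CPM in WT in subcluster 4.

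A stricter view asked which genes passed the fold the same way in each of subclusters 0, 1 and 2. Of 3334 genes measured in all 3, 4 (0.12%) were higher in each and 4 (0.12%) lower in each. The higher ones were Mat2a, which makes S-adenosylmethionine, Ube2s, a ubiquitin-conjugating enzyme of mitosis, Nsd3, a histone methyltransferase, and Zbtb16. The lower ones were Ifi27l2a, the nuclear long noncoding RNA Neat1, the melanosome gene Pmel and 1 predicted gene. Mat2a was at 332, 179 and 327 CPM in subclusters 0, 1 and 2 of KO and 191, 117 and 184 CPM in those of WT, although over all fibroblasts its ratio was 1.06. Neat1 was at 294, 269 and 231 CPM in subclusters 0, 1 and 2 of KO and 757, 630.2 and 1436 CPM in those of WT. Pmel was lower outside the fibroblasts as well, at 54.0 CPM in KO and 265 CPM in WT in the other cells, where the summed melanocyte markers were also lower in KO (195 and 870.5 CPM), and the part of melanocyte RNA was not tested.

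In the stress lists no gene was higher, beside 5.81% of all genes, and most of the lower ones, beside 4.88%, were immediate early genes. Of 25 immediate early genes 5 were lower, Dusp1, Egr2, Egr3, Klf4 and Fosb, with a median log2 ratio of -0.15, and in the shared subclusters 0 were lower and 1 higher. Of 17 heat shock chaperones 2 were lower, Hspa1a (753 CPM in KO and 1385 CPM in WT) and Hspa1b (738 and 1198 CPM), and both were lower in the shared subclusters. All 17 measured genes of endoplasmic reticulum stress were neither higher nor lower, with a median log2 ratio of -0.04. Hmox1, the heme oxygenase, was the 1 gene called among 16 metallothionein and oxidative response genes, at 35.8 CPM in KO and 79.1 CPM in WT, and was lower in the shared subclusters too, at 0.415 (0.286 to 0.599).

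Metabolic lists had calls in both directions, to be read beside 5.81% higher and 4.88% lower of all genes. Of 20 cholesterol synthesis genes 1 was higher and 2 lower, and of 21 glycolysis and hypoxia genes 2 were higher, Adm and Pfkfb3, and 1 lower, Ndrg1. In the shared subclusters Adm was higher, at 1.80 (1.47 to 2.21), while Pfkfb3 at 3.44 (0.995 to 18.3) and Ndrg1 at 1.22 (0.891 to 1.70) were not called. Of 14 adipogenic genes Apod, Lpl and Dlk1 were higher and Fabp5 lower. For Fabp5, 209 of the 287 WT UMIs lay in 1 cell of subcluster 3, and without that cell its ratio was 1.26 (0.939 to 1.71). Apod, a lipocalin, was at 2208 CPM in KO and 1292 CPM in WT, a ratio of 1.71 (1.61 to 1.81), but 1017 of its 3391 KO UMIs lay in 1 cell of subcluster 2. Without that cell the ratio of Apod was 1.21 (1.14 to 1.29) over all fibroblasts and 1.03 (0.952 to 1.11) in the shared subclusters, so it was not called. The ratios without 1 cell were computed after the values were seen. Of 40 fibroblast transcription factors 1 was higher, Ebf3, and 8 lower. The CPM of the 8 lower ones peaked in subcluster 4 for 5 of them and in subcluster 5 for 3. In the shared subclusters 0 of 36 measured factors were higher and 2 lower, and only 1 of the 8 was among those lower there. Osr2 was at 85.3 CPM in KO and 223 CPM in WT, a ratio of 0.382 (0.309 to 0.470), and at 0.637 in the shared subclusters.

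Of 34 genes in the cholinergic list only 2 were measured in these fibroblasts. Ly6e, a GPI-anchored Ly6 protein, was at 271 CPM in KO and 459 CPM in WT, a ratio of 0.591 (0.521 to 0.671), and at 0.715 in the shared subclusters. Lynx1, a GPI-anchored modulator of nicotinic receptors, had a ratio of 1.16 (0.621 to 2.18) and was not called.

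Set beside the papilla cells of the same libraries, 499 in KO and 596 in WT, the fibroblasts had 892 of 10852 genes (8.22%) at least 2-fold higher in both libraries and 1540 (14.2%) at least 2-fold lower. Ccl11 (eotaxin, an eosinophil attractant) was at 594 CPM in KO and 542 CPM in WT fibroblasts, with 1 and 2 UMIs in papilla cells. C3, the central complement protein, was at 1889 CPM in KO and 1280 CPM in WT fibroblasts, against 2.77 and 4.87 CPM in papilla cells. On the other side Edn3 (endothelin 3, a melanocyte growth signal) was at 1.95 CPM in KO and 2.93 CPM in WT fibroblasts, against 558 and 635 CPM in papilla cells. Rspo2, an R-spondin, had 0 UMIs in fibroblasts of both libraries and 717 and 1047 in KO and WT papilla cells.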

How the data were processed

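The deposited values are UMI counts per gene and cell, aligned to mm10 with Cell Ranger 3.0.2 per the submitters' processing notes, while the file headers give software version 3.1.0; the authors name Seurat 3.0 with no role. Gene coordinates are from GENCODE vM21. Cells were filtered and chosen as described, and UMIs summed per library. Ratios of CPM carry exact binomial intervals, and a count of 0 was set to 3. Members, gene lists and tests were chosen with earlier results of these data known. Named genes were the 12 highest and 12 lowest with at least 100 UMIs for which fibroblasts are a main source, the 2 highest and 2 lowest of each list with at least 50 UMIs, and the 6 leading genes of each subcluster and side of the papilla comparison. Predicted, mitochondrial, ribosomal, haemoglobin and sex-linked genes stayed out. Some genes that these rules pick are not reported here. Other named genes were chosen after their values were seen. Subclusters used scanpy 1.11.5 with 2000 variable genes, 20 components, 15 neighbours and Leiden clustering. Doublets were scored and kept, and leaving them out was an alternative. Scaling factors came from edgeR 4.0.16, used for no test. Python was 3.11.15 and scipy 1.17.1. The rule for calling genes was run on simulated sums drawn as independent Poisson counts, the model that the intervals assume. The simulation held no variation between cells, subclusters or replicate libraries, so it cannot show whether the calls would hold in other libraries.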

Additional observations from a re-analysis of the deposited data

Results flagged for a closer look

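In 4 of the most different genes, KO and WT differed in opposite directions over all fibroblasts summed and in papilla cells. The difference between the cell types was not tested. The fibroblast ratios are sums over subclusters that the libraries filled unevenly. Within subclusters 0, 1 and 2 Mgp was higher and Il1r2 lower, while Mfap4 was just short of the limit for lower. Aldh3a1 was not called there, but it had few UMIs outside subcluster 5, so this does not show that the libraries were alike. Mgp had a ratio of KO over WT of 3.16 in fibroblasts and of 0.424 (0.309 to 0.575) in papilla cells, where it was at 19.4 CPM in KO and 45.8 CPM in WT. Aldh3a1 was at 0.188 in fibroblasts and 4.68 (1.94 to 12.9) in papilla cells, with 23 UMIs in KO and 7 in WT. Of its fibroblast UMIs, 7 of 18 in KO and 74 of 85 in WT lay in subcluster 5, which held 3 KO and 65 WT cells. Mfap4 was at 0.202 in fibroblasts and 1.79 (1.499 to 2.14) in papilla cells, where it was at 100.5 CPM in KO and 56.2 CPM in WT. Il1r2 was at 0.253 in fibroblasts and 2.28 (1.15 to 4.67) in papilla cells, with 24 UMIs in KO and 15 in WT. In cells that were neither fibroblasts nor papilla cells, Aldh3a1 was found in 21.7% in KO and 27.9% in WT, and Il1r2 in 38.5% and 36.1%. RNA from those cells as a source was not tested.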

How the results depend on the processing

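The ratio of fibroblast shares ranged from 1.16 to 1.28 over 7 alternatives. With cells thinned to 1000 UMIs, 196 genes were higher and 181 lower, since fewer counts remain (264 KO and 232 WT cells kept). With subclusters 0, 1 and 2 weighted alike 407 genes were higher and 231 lower, and with their counts summed, an alternative chosen after seeing the data, 376 and 213. The other alternatives gave 410 to 657 higher and 342 to 569 lower genes. Against papilla cells a 3-fold limit gave 571 higher and 801 lower genes, and a 1.5-fold limit 2950 lower. Of 1884 values of named genes, 1578 stayed within their interval, 268 moved and 38 reversed, and 7 genes had too few counts under each alternative on shared subclusters. Weighted alike, the log2 ratio was 0.061 for S100a4, 0.94 for Cyp26b1, 0.30 for Rspo1, 0.11 for Col1a1, 0.18 for Lum, 1.58 for Col11a1, 0.77 for Serpina3n, 1.25 for Mylk, 0.44 for Ccl8, 0.075 for Gbp2, 0.37 for Masp1, 0.34 for Ndrg1, 1.53 for Cenpf and -0.078 for Rbp4. Summed, it was 0.083 for S100a4, 0.99 for Cyp26b1, 0.42 for Rspo1, 0.13 for Col1a1, 0.0098 for Col1a2, 0.20 for Lum, 0.50 for Col11a1, 0.78 for Serpina3n, 0.86 for Mylk, 0.41 for Ccl8, 0.012 for Gbp2, 0.60 for Masp1, 0.29 for Ndrg1, 1.45 for Cenpf and -0.049 for Rbp4. These alternatives leave out subclusters 3, 4 and 5 by construction. Some of these values rest on few UMIs in subclusters 0, 1 and 2. Col11a1 had 7 UMIs in KO and 0 in WT there, so its summed value used the floor of 3 and is a bound. Mylk had 9 UMIs in KO and 3 in WT, with an interval of the summed ratio of 0.454 to 10.5. Cenpf had 9 and 2, with an interval of 0.565 to 26.0. None of these 3 genes was called there. For Fabp5 it was 0.45 with markers counted after thinning and 0.46 with a keratin limit of 0.2%. Without cells of doublet score over 0.25 it was -0.59 for Spp1, -0.52 for Mki67, -1.26 for Top2a and -0.0032 for Rbp4. In thinned cells it was 0.14 for H2-Q7 and -0.41 for Mki67, and as a mean over cells -0.71 for Mki67. In 1 KO cell of subcluster 4 lay 53 of the 96 KO UMIs of Mki67, 46 of the 72 of Top2a and 30 of the 77 of Rbp4. Without that cell the ratio was 0.774 (0.504 to 1.18) for Mki67, 0.597 (0.350 to 1.002) for Top2a and 1.004 (0.649 to 1.55) for Rbp4. For Top2a 12 of the 40 WT UMIs also lay in 1 cell, and without that WT cell its ratio was 2.27 (1.45 to 3.65). The cause of these reversals was not tested. No paired analysis was possible because there was 1 library per genotype.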
